A study of Mus musculus with 3 samples.

Results

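The 10 genes described here, out of 32285 measured in 3 single-cell RNA libraries of the inflamed mouse large intestine, were Ptgs1, Ptgs2, Ptges, Hpgds, Hpgd, Ptger4, Alox5, Alox5ap, Lta4h and Ltc4s. They were chosen by name, as enzymes that make or break down prostaglandins and leukotrienes together with 1 prostaglandin receptor, and all 10 were present in the files. The mice, of the C57BL/6J background (written C57/BL6J in the labels), drank 1.5% dextran sulfate sodium (DSS), which injures the colonic epithelium, for 7 days and plain water for 3 days. All were dosed with 250 µg of an antibody intraperitoneally 3 times a week, which was rat IgG as the isotype control, DATK32 or MECA-367. DATK32 and MECA-367 are antibodies against the pair of molecules, α4β7 integrin and MAdCAM-1, through which lymphocytes enter the gut wall. The labels call DATK32 a surrogate of ontamalimab, which binds MAdCAM-1, and MECA-367 one of vedolizumab, which binds α4β7, while each clone is generally known to bind the other molecule. This was not resolved, and if the clone names were exchanged, so would be every DATK32 and MECA-367 value below. Lamina propria mononuclear cells (LPMC) were sorted for viability and CD45, and 1 library per antibody was made with a 10x 3′ kit. The number, sex and age of the mice behind each library are not given in the sources used here, and the libraries are called by their antibody.

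Prostaglandins and leukotrienes both start from arachidonic acid, which phospholipases release from membranes. The cyclooxygenases, Ptgs1, present in many resting tissues, and Ptgs2, induced by inflammatory signals, turn it into prostaglandin H2, from which Ptges makes prostaglandin E2 and Hpgds makes prostaglandin D2. Hpgd, a dehydrogenase, inactivates prostaglandins, and Ptger4 is the EP4 receptor for prostaglandin E2. In the other branch Alox5, helped by its membrane partner Alox5ap, makes leukotriene A4, which Lta4h turns into leukotriene B4, a neutrophil attractant, and Ltc4s turns into leukotriene C4, a known product of mast cells. In the colon prostaglandin E2 is known for its part in epithelial repair after DSS injury.

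Barcodes with at least 500 UMIs (unique molecular identifiers, counted once per captured transcript), 200 genes and at most 10% mitochondrial UMIs were kept, which left 7367, 5852 and 5890 cells for rat IgG, DATK32 and MECA-367, the order used for every set of 3 values below. The kept cells held 18109793, 17450259 and 18357517 UMIs. Clusters were named from marker genes into 16 classes, a name meaning cells like that type, and 2340 cells in 6 clusters stayed unnamed. Although the labels state a CD45 sort, large classes of stroma and epithelium were present, such as mucosal fibroblasts (642, 371 and 912 cells) and columnar epithelium (968, 589 and 314 cells). Ptprc, the gene of CD45, had a UMI in 76.2% of neutrophils and 74.9% of mononuclear phagocytes, and in 7.27% of mucosal fibroblasts and 2.41% of columnar epithelial cells. Depth differed between libraries within classes: neutrophils had medians of 865.5, 1136.5 and 2463 UMIs per cell and mononuclear phagocytes 1180, 1596 and 2547. Rat IgG shared 11 barcodes with DATK32 and 9 with MECA-367, and the last 2 libraries shared 7.

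Levels are given as CPM, the share of a gene in all UMIs summed over the cells of a class in a library, times 1000000, with an exact Poisson 95% interval in parentheses where it is printed. A 3′ assay counts transcripts rather than their length, so CPM was not scaled by length and levels were compared between classes and libraries, not between genes. With 1 library per antibody there is no replicate and no test between antibodies. A pair of gene and class was called higher or lower when the fold was at least 1.5 and the Poisson intervals were apart, and these intervals cover counting error only. Of 140 pairs of the 10 genes with the 14 classes that had at least 30 cells in each library, 45 had at least 50 UMIs over the libraries and were compared, covering 9 genes, with none of Ltc4s. Mast or basophil cells (22, 8 and 36) and squamous cells (231, 179 and 0) were too few and are described by their values.

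Among the 14 compared classes, the highest was the same in all 3 libraries for 4 of the 10 genes: mononuclear phagocytes for Ptgs2, interstitial cells for Hpgd, neutrophils for Alox5ap and goblet cells for Ptger4. The other 6 genes either had few UMIs or had 2 classes at similar levels. The map of levels shows Ptgs1 mainly in stroma, Ptgs2 and Ptges in stroma and phagocytes, Hpgd and Ptger4 in epithelium and parts of the stroma, and Alox5ap in myeloid cells.

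**Figure D1:**
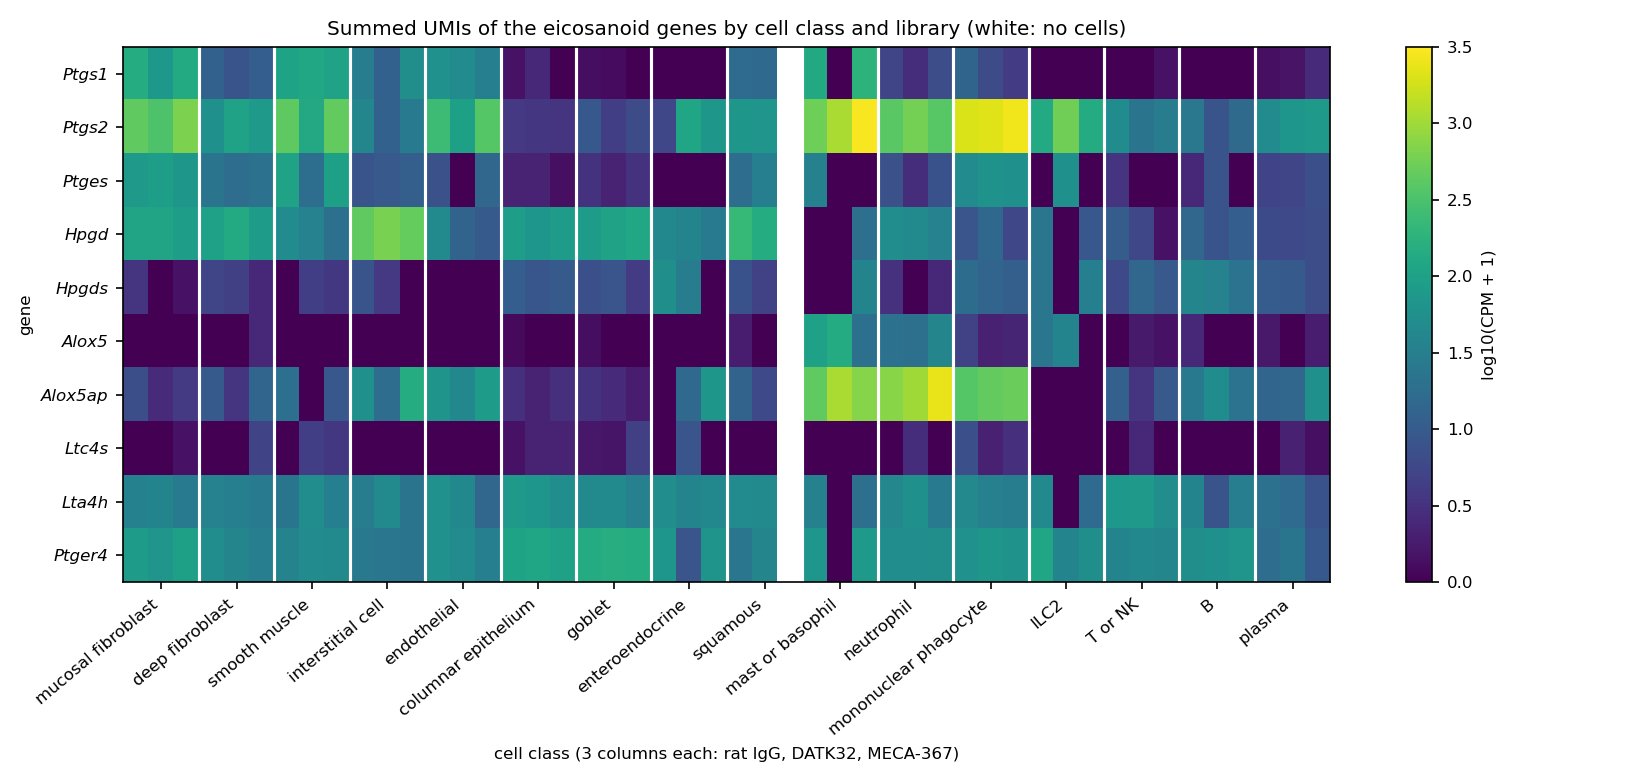
Colour gives log10(CPM + 1) of each of the 10 genes (rows) in each of 16 classes and the 3 libraries (columns), and white marks a class with no cells in that library. Among the 14 compared classes, Ptgs2 was highest in mononuclear phagocytes, Alox5ap in neutrophils, Hpgd in interstitial cells and Ptger4 in goblet cells in each library.

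Ptgs2, the inducible cyclooxygenase, had 13324 UMIs in kept cells, and mononuclear phagocytes (monocytes, macrophages and conventional dendritic cells as 1 class) held 57.2%, 64.1% and 55.7% of them. Its level there was 2029 (1932 to 2129.8), 2138 (2045 to 2235) and 2653 (2573 to 2735) CPM, apart from every other compared class in each library. The gene had a UMI in 66.1%, 74% and 81% of phagocytes, and after thinning every cell to 500 UMIs, to set depth equal, in 48.2% (43.9 to 52.5), 51.2% (46.5 to 56) and 55.9% (51.4 to 60.3). Plasma cells, which should lack the enzyme and were the deepest of the lymphocyte classes, gave 48.3, 68.1 and 74.4 CPM and thinned shares of 2.16%, 0.962% and 2.9%. The phagocyte share lay above that background in each library. Within phagocytes the UMIs were uneven, the 10% of cells with the most holding 43.3, 42.6 and 43.1 percent of them.

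Below phagocytes, Ptgs2 ran through neutrophils and stroma. Neutrophils had 400.4 (345 to 462), 578 (515 to 646) and 384 (357 to 412) CPM. Mucosal fibroblasts, named from markers such as Adamdec1 and Pdgfra, had 437 (393 to 484), 332 (288 to 380.2) and 643 (608 to 679) CPM. In rat IgG the intervals of mucosal fibroblasts, smooth muscle and neutrophils overlapped, so their order there was not resolved. Deep fibroblasts, whose clusters had Dpt and Lum among their leading genes, were lower, at 55.6, 103 and 77.1 CPM. Columnar epithelium and goblet cells were the lowest of the large classes, at 2.77, 2.55 and 2.42 CPM and 8.2, 3.42 and 5.46 CPM, under the plasma cell level in each library. Among lymphocytes, T or NK cells had 49.5, 20.9 and 29.4 CPM and B cells 23.8, 6.99 and 15.2 CPM. The few mast or basophil cells had 16, 8 and 158 UMIs, which gave 538 (308 to 874), 1124 (485 to 2215) and 2921 (2483 to 3413) CPM, overlapping phagocytes in DATK32 and MECA-367. That class was uneven between libraries: the mast cell protease transcripts Mcpt1 and Mcpt2 had 332, 1 and 102 and 270, 1 and 168 UMIs there, and Il4, from the basophil list, had 8, 15 and 119.

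The start of the Ptgs2 gene (Ensembl ENSMUSG00000032487, GRCm38 chromosome 1, 150100031 to 150108227, plus strand) and that of Ptgs1 (ENSMUSG00000047250, chromosome 2, 36230426 to 36252272, plus strand) are shown because the data set these sister enzymes apart by cell class. Each window is the 250 bases before the transcription start in RefSeq on GRCm38.p6, plus strand, at chr1:150099781-150100030 for Ptgs2 and chr2:36230176-36230425 for Ptgs1, with letters matching a searched motif in capitals.
Ptgs2: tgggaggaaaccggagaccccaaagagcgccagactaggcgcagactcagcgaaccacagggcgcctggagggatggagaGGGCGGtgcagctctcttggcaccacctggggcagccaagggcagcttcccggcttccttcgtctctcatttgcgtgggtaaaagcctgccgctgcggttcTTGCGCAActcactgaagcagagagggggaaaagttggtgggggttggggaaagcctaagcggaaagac
Ptgs1: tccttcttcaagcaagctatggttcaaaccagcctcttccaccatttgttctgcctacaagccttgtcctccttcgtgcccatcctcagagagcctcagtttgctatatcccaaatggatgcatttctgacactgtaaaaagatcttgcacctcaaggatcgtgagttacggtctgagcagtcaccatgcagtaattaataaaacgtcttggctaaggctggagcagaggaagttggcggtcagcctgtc
Both strands were searched for 4 motifs. TTGCGCAA, the palindrome bound by C/EBP proteins, occurred in Ptgs2 with its first base 69 bases before the start, in no other member's window, and in 54 of 32851 windows of that length (0.164%). The GC box GGGCGG, or its reverse complement, occurred 170 bases before the Ptgs2 start, in 5 of the 9 members with a window (Ptgs2, Ptges, Hpgd, Alox5 and Ptger4) and in 32.7% of all windows. CACGTG (6.02% of windows) and TATAAA (12.4%) occurred in none of the 9. These are matches of letters, and the libraries hold no measurement of binding.

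Ptgs1, the constitutive cyclooxygenase, had most of its UMIs in stroma. Mucosal fibroblasts had 147 (122 to 175), 73.4 (53.7 to 97.9) and 135 (119.7 to 152) CPM and held 52.6%, 32.2% and 67.5% of its 780 UMIs by library. Smooth muscle had 105 (70.4 to 151), 120.2 (83.7 to 167) and 103 (73.4 to 141) CPM, which overlapped mucosal fibroblasts in each library. Endothelium had 57.4, 48.2 and 31.3 CPM, and deep fibroblasts, at 11.1, 7.16 and 9.99 CPM, lay below mucosal fibroblasts with intervals apart in each library. Mononuclear phagocytes, the peak of Ptgs2, had 12.4, 5.43 and 3.22 CPM of Ptgs1, and plasma cells 0.371, 0.541 and 1.65 CPM. The few mast or basophil cells had 4, 0 and 10 UMIs, or 135 (36.7 to 345), 0 (0 to 518) and 185 (88.6 to 340.0) CPM, which overlapped mucosal fibroblasts in rat IgG and MECA-367.

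**Figure D2:**
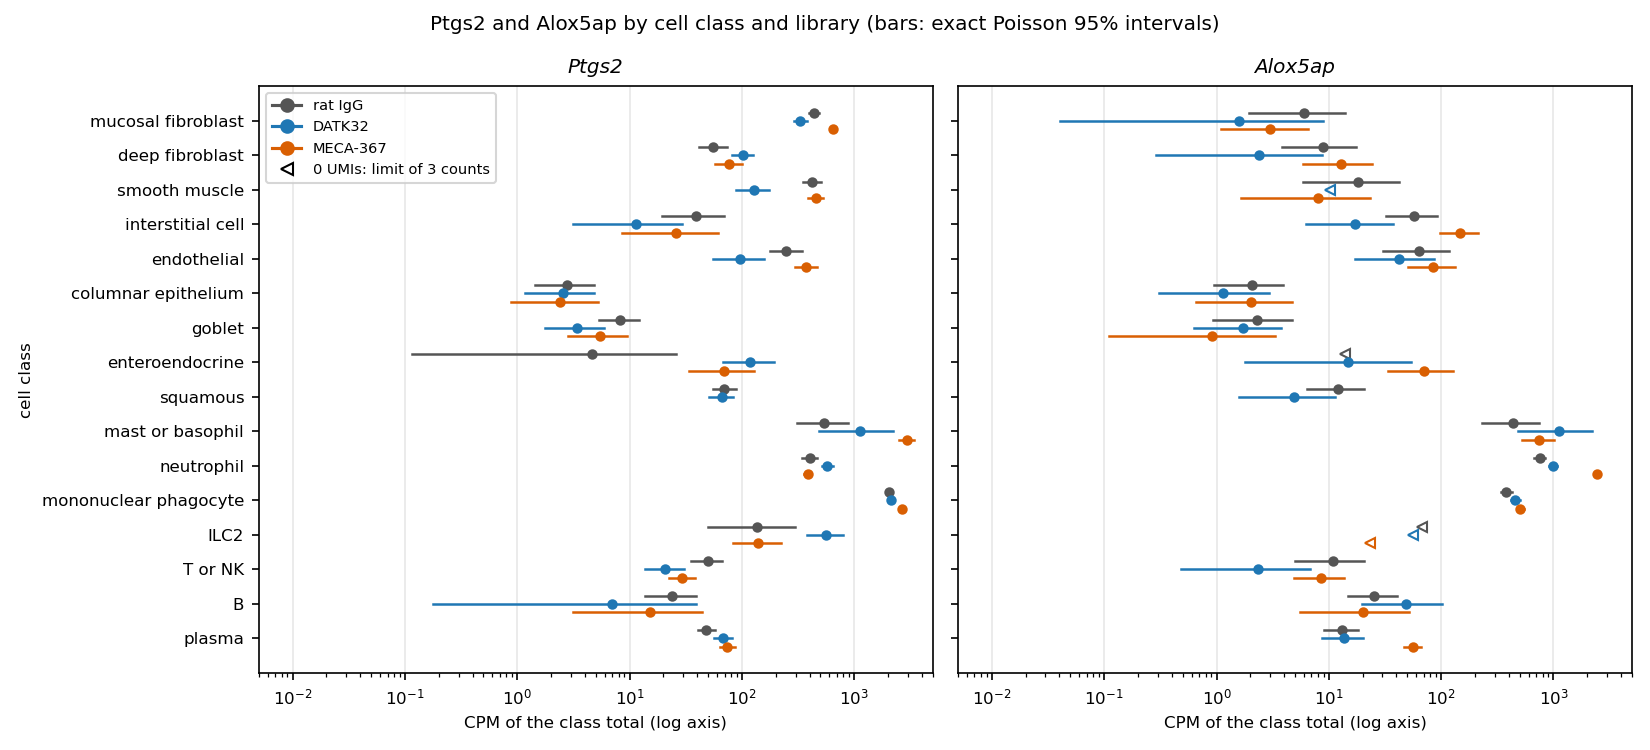
CPM on a log axis of Ptgs2 (left) and Alox5ap (right) by class, with a point per library and exact Poisson 95% intervals as bars, and open triangles for 0 UMIs drawn at the level of 3 counts. Among the 14 compared classes, phagocytes stood highest for Ptgs2 at 2029, 2138 and 2653 CPM, and neutrophils for Alox5ap at 754, 987 and 2455 CPM.

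Ptges, the synthase of prostaglandin E2, was found in stroma and phagocytes at low counts (752 UMIs). Mucosal fibroblasts had 76.4 (58.8 to 97.6), 91 (68.9 to 118) and 71.1 (59.96 to 83.8) CPM, smooth muscle 101 (67.4 to 147), 17.2 (5.57 to 40.1) and 98 (69 to 135) CPM and mononuclear phagocytes 47.3 (33.5 to 64.9), 61.9 (46.9 to 80.2) and 56.6 (45.4 to 69.8) CPM. In rat IgG mucosal fibroblasts overlapped both others while smooth muscle lay above phagocytes, and in DATK32 smooth muscle lay below both others. Plasma cells, which should lack Ptges, had 4.08, 4.32 and 6.2 CPM, and neutrophils 6.46, 1.87 and 6.64 CPM. In cells thinned to 1000 UMIs, Ptges was found in 5.14%, 4.42% and 5.99% of phagocytes with Ptgs2 and in 1.57%, 3.28% and 3.03% of those without, with overlapping exact binomial intervals in each library, so a link within single cells was not resolved at this depth.

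Hpgds, the hematopoietic prostaglandin D synthase, was sparse and spread thinly, with 394 UMIs. B cells had 38.7 (25.3 to 56.8), 34.9 (11.3 to 81.5) and 20.3 (5.53 to 52) CPM and mononuclear phagocytes 16.2 (8.62 to 27.7), 13 (6.73 to 22.8) and 10.3 (5.88 to 16.7) CPM. Plasma cells, taken as the class that should lack it, had 9.28, 8.65 and 5.79 CPM, and in each library their interval overlapped that of phagocytes. Enteroendocrine cells had 12, 4 and 0 UMIs in 72, 45 and 36 cells, or 55.2, 29.6 and 0 CPM, where 0 UMIs in the MECA-367 cells allowed up to 20.97 CPM. Mast or basophil cells, a known site of prostaglandin D2 synthesis, had 0, 0 and 2 UMIs, and 0 of 22 cells in rat IgG allows a share of cells with a UMI of up to 13.6%. At a median of 1037 UMIs per cell this sets no limit on the share of cells that express Hpgds.

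Hpgd, the enzyme that inactivates prostaglandins, was highest in interstitial cells, the Kit and Ano1 pacemaker cells of the gut muscle, at 440.5 (366 to 525), 616 (536 to 703) and 465 (374 to 572) CPM. It had a UMI in 31.7%, 42.2% and 44.6% of them, and in 18.7%, 25% and 21.8% after thinning to 500 UMIs. The next level was broad: squamous cells had 221 and 147 CPM in the first 2 libraries, mucosal fibroblasts 111, 109 and 91 CPM, deep fibroblasts 99, 135 and 84.2 CPM, goblet cells 82, 104 and 125 CPM and columnar epithelium 88.2, 69 and 83.8 CPM. In rat IgG, columnar, goblet and squamous cells held 28.5%, 18.7% and 17.7% of all Hpgd UMIs. Smooth muscle, at 47.1, 34.3 and 18.5 CPM, and mononuclear phagocytes, at 7.47, 14.1 and 4.5 CPM, were low. T or NK cells, taken here as the background class for Hpgd and not split into subsets, had 9.66, 4.64 and 0.498 CPM. Neutrophils gave 51.7, 44.9 and 34.2 CPM, above T or NK cells with intervals apart in each library. Epithelial and goblet markers took 1.08%, 1.03% and 0.7% of neutrophil UMIs, and the part of epithelial RNA in that neutrophil level was not tested. Interstitial cells had 39.1, 11.4 and 26.1 CPM of Ptgs2, so the class highest in Hpgd was low in Ptgs2 and the class highest in Ptgs2 was low in Hpgd.

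Ptger4, the EP4 receptor, was highest in goblet cells, at 142 (129 to 156), 151 (138 to 164) and 147 (132 to 164) CPM, followed by columnar epithelium at 105 (95.6 to 115), 116 (105 to 128) and 99.5 (87.5 to 113) CPM, with intervals apart in each library. It had a UMI in 38.2%, 50.7% and 59.6% of goblet cells, whose median depth was 3859, 5799 and 7726.5 UMIs, and in 7.11%, 6.99% and 4.61% after thinning to 500 UMIs. Mucosal fibroblasts had 83.6, 65.4 and 97.5 CPM, mononuclear phagocytes 58.5, 69.5 and 62.4 CPM, B cells 52.2, 55.9 and 66 CPM, neutrophils 51.7, 50.5 and 52.1 CPM and T or NK cells 37.4, 42.5 and 39.4 CPM. Plasma cells were the lowest compared class with over 50 UMIs, at 16.7, 21.6 and 8.27 CPM. Ptger4 overlaps Ttc33 on the opposite strand, and the strand setting of the counting is not stated, so reads of the 2 genes may not be fully separated.

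Alox5ap, the partner that presents arachidonic acid to 5-lipoxygenase, stood highest in neutrophils among the compared classes. Neutrophils had 754 (677 to 837), 987 (904 to 1075) and 2455 (2386 to 2525) CPM and mononuclear phagocytes 381 (339 to 426), 458 (416 to 504) and 506 (472 to 543) CPM, and no other compared class reached either level. The gene had a UMI in 69.2%, 76.5% and 97% of neutrophils and in 45.7% (39.2 to 52.3), 46.6% (40.2 to 53.2) and 73.1% (69.2 to 76.7) after thinning to 500 UMIs. Stroma, which should lack it, gave 5.97, 1.6 and 2.98 CPM in mucosal fibroblasts and 8.9, 2.39 and 12.8 CPM in deep fibroblasts, with thinned shares of 0.156%, 0% and 0.11% and 0.148%, 0% and 0.306%. Interstitial cells were higher, at 56.8, 17.1 and 146 CPM from 16, 6 and 28 UMIs, and neutrophil markers summed to 3872, 741 and 11859 CPM in them, all 10 markers being found in each library. Mast or basophil cells had 13, 8 and 40 UMIs, or 437 (233 to 748), 1124 (485 to 2215) and 739 (528 to 1007) CPM, which overlapped neutrophils in rat IgG and DATK32 and lay below them in MECA-367.

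Alox5 itself was sparse, with 144 UMIs in all kept cells. Neutrophils held 9, 10 and 75 of its 26, 16 and 102 UMIs by library, which gave 19.4 (8.86 to 36.8), 18.7 (8.96 to 34.4) and 38.3 (30.1 to 48) CPM. Mononuclear phagocytes, rich in Alox5ap, had 3, 1 and 2 UMIs of Alox5. Mucosal fibroblasts and smooth muscle had 0 in each library. Mast or basophil cells had 3, 1 and 1 UMIs. Pooled over the libraries this was 55 (17.9 to 128) CPM, which overlapped neutrophils at 31.8 (25.7 to 38.9) CPM. By CPM the highest compared class was ILC2 in rat IgG and DATK32 and neutrophils in MECA-367. ILC2 had only 3 UMIs of Alox5 over the libraries, or 13.2 (2.73 to 38.7) CPM. Ltc4s had 52 UMIs, at most 8 in any named class and library, which lay in phagocytes (5, 1 and 3), goblet cells and columnar epithelium among others, and 0 in mast or basophil cells. With 36 MECA-367 cells of that class, 3 counts would be 55.5 CPM. Pooled over the libraries, 0 UMIs in 66 cells allowed up to 40.6 CPM by the exact Poisson interval, so a level below that could not be told from 0. Ltc4s overlaps Gm26542, and Alox5ap overlaps Gm19719, both antisense genes counted in the same files.

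Ltc4s, Ptgs1 and Alox5 were also found in a small set of cells picked by tuft markers. Tuft cells, chemosensory epithelial cells known to make leukotriene C4, formed no cluster of their own. In the 36 kept cells with UMIs of at least 2 of 8 tuft markers, Ltc4s had 10 of its 52 UMIs, or 102 CPM (48.7 to 187). Alox5 had 9 UMIs there, or 91.5 CPM (41.8 to 174), and Ptgs1 had 15, or 152 CPM (85.3 to 251). Of the 36 cells, 6 were in the named epithelial classes, 23 in unnamed clusters and the rest in other named classes. Ltc4s had a UMI in 8 of the 36 cells, Alox5 in 7 and Ptgs1 in 11, and whether the same cells held these genes was not tested. Unnamed cluster 26 (17 cells), led by Sst, Meg3 and Stmn2, had tuft as its best list (score 2.13) and glia next (1.76). Whether the 36 cells were tuft cells was not tested.

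Lta4h, which makes leukotriene B4, differed from its partners in being broad. Columnar epithelium had 74.3 (66.4 to 82.9), 68.7 (60.3 to 77.9) and 50.4 (41.9 to 60.02) CPM and T or NK cells 72.4 (55.3 to 93.3), 76.5 (62.2 to 93.2) and 50.8 (41.5 to 61.7) CPM, with overlapping intervals. Goblet cells had 46.9, 44.1 and 32.3 CPM, neutrophils 40.9, 56.1 and 25.5 CPM, mononuclear phagocytes 43.6, 32.6 and 29 CPM and mucosal fibroblasts 33.4, 36.7 and 27.9 CPM. Plasma cells were low at 18.9, 15.7 and 6.61 CPM.

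Clustering phagocytes, stroma and epithelium again placed the members within them (values pooled over the libraries). Of 11 phagocyte sub-clusters, number 5, led by Nos2, the inducible nitric oxide synthase, with Saa3, Inhba and Il1a, had 5703 (5491 to 5922) CPM of Ptgs2 and 223 (182 to 269) CPM of Ptges. It held 85, 82 and 98 cells, and its Ptgs2 level by library was 5214, 5429 and 6027 CPM. The members were left out of the genes used for clustering. Ptgs1 had 0 UMIs in that sub-cluster. Sub-cluster 10, led by Apoe, C1qa and Ms4a7, genes of tissue macrophages, showed other members: Hpgds at 110.2 (68.2 to 168) CPM, Ptgs1 at 52.5 (25.2 to 96.5) CPM and Ltc4s at 31.5 (11.6 to 68.5) CPM, from 21, 10 and 6 UMIs in 89 cells. Its Hpgds level by library was 110.3, 80.3 and 143 CPM. Alox5ap was highest in sub-cluster 7, led by Vcan and Ccl2, at 947 CPM, and in sub-cluster 8, at 890.4 CPM. Sub-cluster 8 led with S100a9, S100a8 and Retnlg, which are also leading genes of neutrophils, beside the monocyte genes Chil3 and F13a1, and the part of neutrophils or their RNA in its Alox5ap level was not tested. Sub-cluster 11, led by Cst3 and Ccr7, genes of dendritic cells, had Ptgs2 at 639 CPM. Sub-clusters 1, 3, 4 and 9 led with genes of B and plasma cells, epithelium, T cells and fibroblasts, and mixed cells or free RNA in them could not be told apart. Sub-cluster 4 also had Mcpt2 among its leading genes. Mast and basophil markers summed to 444, 11.9 and 6.43 CPM in the phagocyte class, with 12, 1 and 3 of 15 markers found. Their part in the phagocyte levels, such as those of Ptgs1 and Ltc4s, was not tested.

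**Figure D3:**
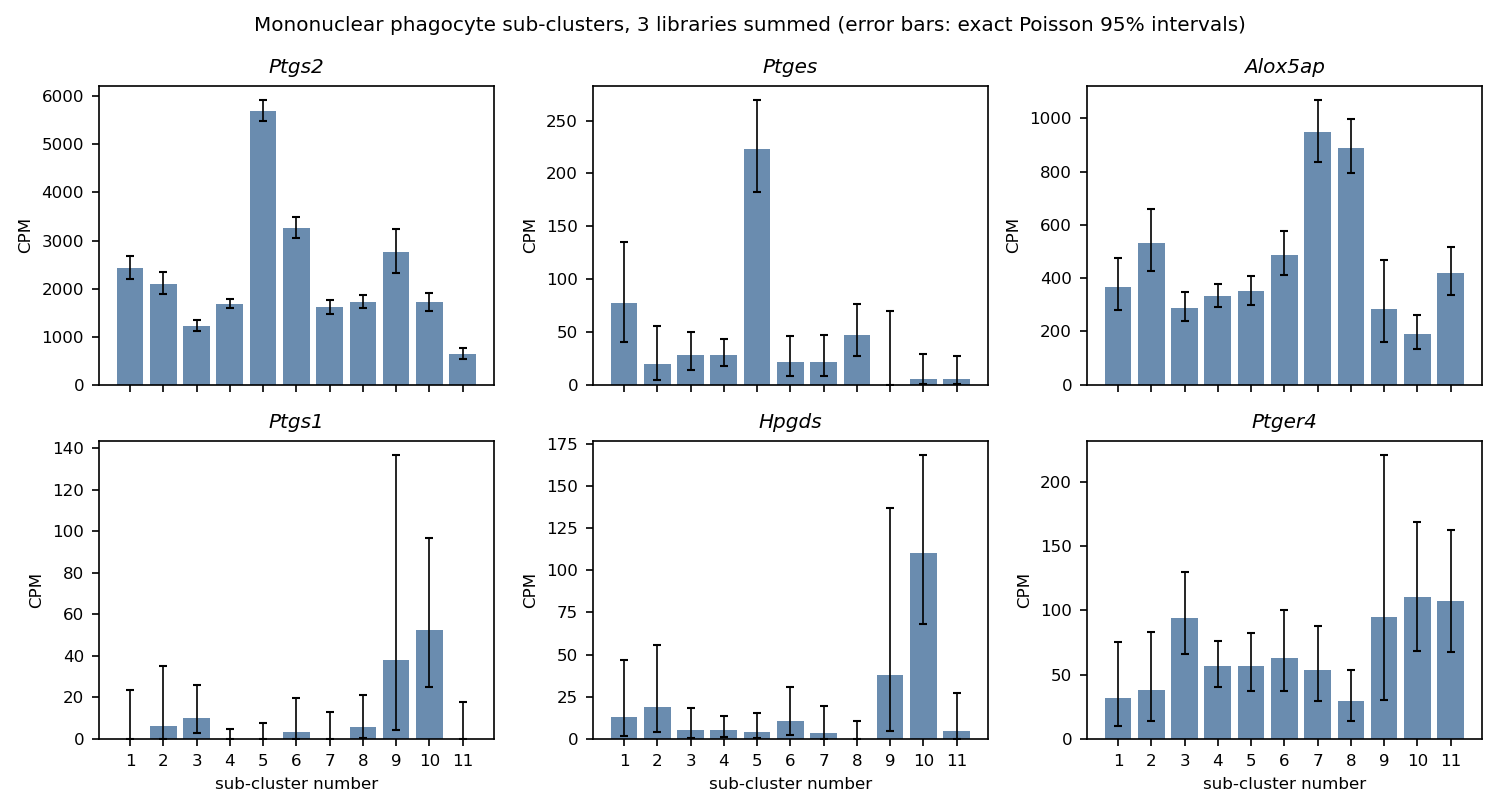
CPM, pooled over the libraries and with exact Poisson 95% intervals, of 6 members in the 11 sub-clusters of mononuclear phagocytes, labelled by number. Ptgs2 and Ptges were highest in sub-cluster 5, Hpgds and Ptgs1 in sub-cluster 10 and Alox5ap in sub-clusters 7 and 8.

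In the stroma, sub-cluster 10, a set of 67 cells led by Cxcl9, Mmp13, Mmp10, Il11 and Cxcl5, had 2323 (2075 to 2593) CPM of Ptgs2 and 621 (496 to 768) CPM of Ptges, found in 70.1% and 61.2% of its cells. It numbered 36, 6 and 25 cells, of which 45 came from the smooth muscle class and 22 from mucosal fibroblasts. Its Ptgs2 level by library was 2411, 1249 and 2412 CPM and its Ptges level 509, 288 and 769.5 CPM. Both smooth muscle values thus drew on few cells. Among mucosal fibroblasts, sub-cluster 15, led by Bmp2 and Ednrb, had both cyclooxygenases, Ptgs2 at 1112 (1015 to 1217) CPM and Ptgs1 at 217 (175 to 266) CPM. Sub-cluster 8, led by Tnfaip6 and Igfbp3, had Ptgs2 at 886 CPM, and sub-cluster 13, led by Ogn and Wnt5a, had Ptgs1 at 205 CPM. Hpgd was divided between the sub-clusters of interstitial cells, 789.6 CPM in number 1, led by Kit and Ano1, and 375 CPM in number 2, led by Rprm and Fst. In epithelium Ptger4 was 193 CPM in goblet sub-cluster 6, led by Zg16 and Clca1, and 61.7 CPM in the cycling sub-cluster 5, led by Ube2c and Top2a. Hpgd reached 169 CPM in goblet sub-cluster 9. Stroma too held mixed sub-clusters: number 4 (115, 24 and 30 cells) led with S100a9, Igkc and Igha, genes of neutrophils and plasma cells, numbers 11 and 17 (119 and 165 cells) with T cell genes such as Ccl5 and Gzma, and number 16 (251 cells) with Reg3b and Muc2 of epithelium. Their cells stayed in the fibroblast, smooth muscle and interstitial classes compared below, and mixed cells or free RNA cannot be told apart there either. Outside the named classes, unnamed cluster 27 (179 cells) had Ptgs2 at 1054 CPM and Alox5ap at 816 CPM, and unnamed cluster 25 (143 cells) had Hpgd at 511 CPM. Cluster 27 had S100a8, S100a9 and Retnlg beside Cxcl13 among its leading genes. Its best marker list was neutrophil (score 1.49) and the next fibroblast (1.08), and whether it held mixed cells was not tested.

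Between DATK32 and rat IgG, 7 of the 45 compared pairs were called, 2 higher and 5 lower in DATK32. Over all genes and the 14 classes the same rule called 2.82% of pairs (1.12% higher and 1.7% lower), against 15.6% here. Most of the 7 were Ptgs2, in deep fibroblasts, smooth muscle, endothelium, ILC2 and T or NK cells, so the pairs are not independent. After TMM scaling (edgeR's trimmed mean of M values) the calls were 4 higher and 5 lower, and on shares of cells after thinning to 500 or to 1000 UMIs none of the 7 was called. For these settings the share over all genes was not recomputed. Of the 5 lower pairs 3 were in fibroblasts or smooth muscle, 1 in endothelium and 1 in T or NK cells. In smooth muscle Ptgs2 was 424, 127 and 456 CPM, a log2 ratio of -1.71, and Ptges was 101, 17.2 and 98 CPM, a log2 ratio of -2.35. DATK32 was the low library for both, and rat IgG and MECA-367 overlapped. The small sub-cluster rich in both genes, drawn mainly from smooth muscle, held 36, 6 and 25 cells, and its part in the class levels was not tested. These rest on 117, 37 and 172 UMIs of Ptgs2 in 27, 13 and 35 cells and on 28, 5 and 37 UMIs of Ptges in 18, 4 and 17 cells. The share of smooth muscle cells with Ptgs2 after thinning to 500 UMIs was 7.48% (4.33 to 11.9), 3.33% (1.09 to 7.61) and 11.7% (7.29 to 17.5) and with Ptges 4.67% (2.26 to 8.43), 1.33% (0.162 to 4.73) and 1.75% (0.363 to 5.04), and by these shares neither pair was called. The 5% mitochondrial limit also ended the Ptgs2 call. Monocyte and macrophage markers summed to 1979, 1875 and 2662 CPM in smooth muscle, with 8, 12 and 10 of 18 markers found, and their part in the Ptgs2 level was not tested.

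Ptgs1 in mucosal fibroblasts was also lower in DATK32, 147, 73.4 and 135 CPM, with a log2 ratio of -0.98 against rat IgG and -0.86 against MECA-367. Its thinned shares were 9.19% (7.07 to 11.7), 5.12% (3.11 to 7.88) and 7.24% (5.64 to 9.12), and neither call held on them or with at least 1000 UMIs per cell. The call against MECA-367 was also lost at a mitochondrial limit of 5% (-0.20) and without the highest Scrublet scores. On shares thinned to 1000 UMIs the call against MECA-367 held and the call against rat IgG did not. In that class 2.81% of all genes were called between DATK32 and rat IgG. Ptgs2 in endothelium was 249, 96.4 and 375 CPM, with log2 ratios of -1.32 against rat IgG and -1.89 against MECA-367. Of its 84 UMIs in MECA-367, 49 lay in 1 cell, and without the top cell of each library the log2 ratios were -1.26 and -1.28 and neither was called. On shares thinned to 1000 UMIs the ratio against MECA-367 turned to 0.45. Without cells holding over 0.5% of their UMIs in neutrophil and phagocyte markers, the ratio against rat IgG was -0.21. Neutrophil markers summed to 4780.0, 4355 and 4787 CPM in endothelium, and their part was not tested. Ptgs2 in T or NK cells had a log2 ratio of -1.23, from 41 and 27 UMIs, near the plasma cell level in rat IgG and below it in DATK32, and lost its call without the top cell.

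The 2 higher pairs were Ptgs2 in ILC2 and in deep fibroblasts. ILC2, innate lymphoid cells that make type 2 cytokines, numbered 43, 53 and 131, and their Ptgs2 level was 135 (49.7 to 295), 557 (376 to 795) and 140.3 (83.1 to 222) CPM, a log2 ratio of 1.87 against rat IgG and 1.96 against MECA-367. The DATK32 value came from 30 UMIs in 9 cells, of which 15 lay in 1 cell, and the call against MECA-367 was lost without the top cells. The call against rat IgG was lost without the highest Scrublet scores (1.51) and without cells holding over 0.5% of their UMIs in epithelial markers (1.17). Monocyte and macrophage markers in ILC2 summed to 474, 297 and 187 CPM and neutrophil markers to 45.1, 260.0 and 265 CPM. Ptgs2 in deep fibroblasts had a log2 ratio of 0.87, but 4 of 16 alternative settings turned its direction, the mitochondrial limit of 5% giving -0.77.

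Between MECA-367 and rat IgG, 6 of 45 pairs were called, 5 higher and 1 lower, or 13.3%, where the rule called 8.85% over all genes (2.88% higher and 5.97% lower). The call resting on the most UMIs was Alox5ap in neutrophils, 350, 528 and 4809 UMIs, with a log2 ratio of 1.70. MECA-367 stood above both other libraries, whose intervals were 677 to 837 and 904 to 1075 CPM. No cell dominated, the top one holding 1.71, 2.08 and 0.832 percent of the UMIs. By thinned shares MECA-367 (73.1%) also lay apart from rat IgG (45.7%) and DATK32 (46.6%). This was the only call, of the 27 in the 3 comparisons, that held under all 16 alternative settings, its log2 ratio ranging from 0.67 to 2.07. It was 1.02 without neutrophils holding over 0.5% of their UMIs in epithelial markers, 1.05 at a mitochondrial limit of 5%, and 2.04 after TMM scaling. The neutrophil class itself differed widely: 29% of all genes were called there between MECA-367 and rat IgG (7.25% higher), the median log2 ratio of all genes was -0.42, and the 10 neutrophil markers summed to 83586, 122235 and 175016 CPM. Alox5ap was thus highest in the library with the highest neutrophil markers, and their part in its difference was not tested.

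The other members measured in neutrophils were not called between MECA-367 and rat IgG, where 29% of all genes were. Ptgs2 was 400.4, 578 and 384 CPM, lower in MECA-367 than in DATK32 by the rule (log2 ratio of DATK32 over MECA-367 0.59, where the median of all genes was 0.24). That call was lost under 6 of 16 settings, TMM scaling among them (0.39). Its thinned shares were 23.1% (17.8 to 29), 22.7% (17.5 to 28.5) and 11.7% (9.15 to 14.6), MECA-367 lying apart from both others although its CPM overlapped that of rat IgG. Alox5 had 9, 10 and 75 UMIs with overlapping intervals between rat IgG and MECA-367. Lta4h was 40.9, 56.1 and 25.5 CPM, with a log2 ratio of DATK32 over MECA-367 of 1.15 that was not called after TMM scaling. Ptger4 was level, at 51.7, 50.5 and 52.1 CPM.

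**Figure D4:**
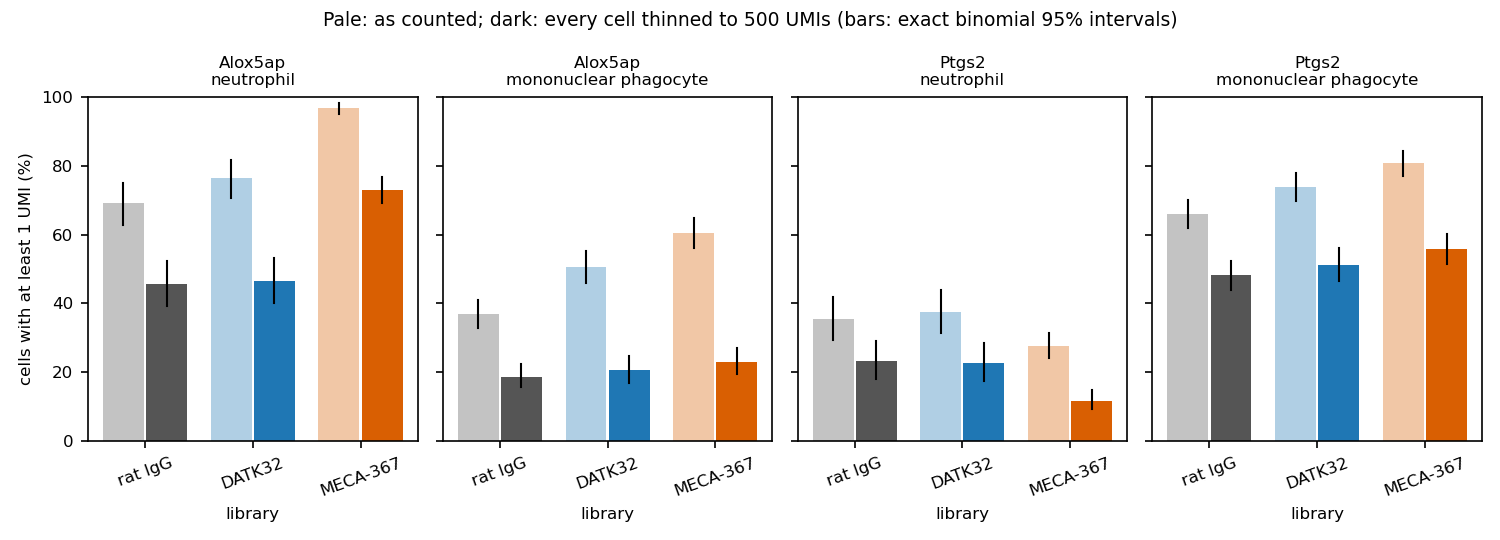
Share of neutrophils and of mononuclear phagocytes with a UMI of Alox5ap or Ptgs2 in each library, as counted (pale) and after thinning each cell to 500 UMIs (dark), with exact binomial 95% intervals. In neutrophils the thinned Alox5ap share was 45.7%, 46.6% and 73.1%, and the thinned Ptgs2 share 23.1%, 22.7% and 11.7%.

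The remaining MECA-367 calls against rat IgG lay mostly in plasma cells. Alox5ap there was 13, 13.5 and 55.8 CPM (log2 ratio 2.07), Ptgs2 48.3, 68.1 and 74.4 CPM (0.62) and Lta4h 18.9, 15.7 and 6.61 CPM (-1.46, lower in MECA-367). Neutrophil markers summed to 696, 252 and 1931 CPM in plasma cells, highest in the library with the most Alox5ap, and their part was not tested. Alox5ap in interstitial cells had a log2 ratio of 1.33, with 14 of the 28 MECA-367 UMIs in 1 cell, and was not called without the top cells. Hpgd in goblet cells, 82 (72.2 to 92.9), 104 (93.5 to 115) and 125 (110.3 to 140.3) CPM, had a log2 ratio of 0.60 and held under 9 of 16 settings, with -0.25 on shares thinned to 500 UMIs. In mononuclear phagocytes none of the 5 measured members was called in any comparison. Over all genes the rule called 2.67% there between DATK32 and rat IgG, 8.45% between MECA-367 and rat IgG and 6.03% between DATK32 and MECA-367. With shares this low, the lack of calls among 5 members says little about them. Between MECA-367 and rat IgG, Ptgs2 was 0.39 and Alox5ap 0.41 on the log2 scale, where the median of all genes was -0.15. Each had intervals apart and a fold under 1.5.

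**Figure D5:**
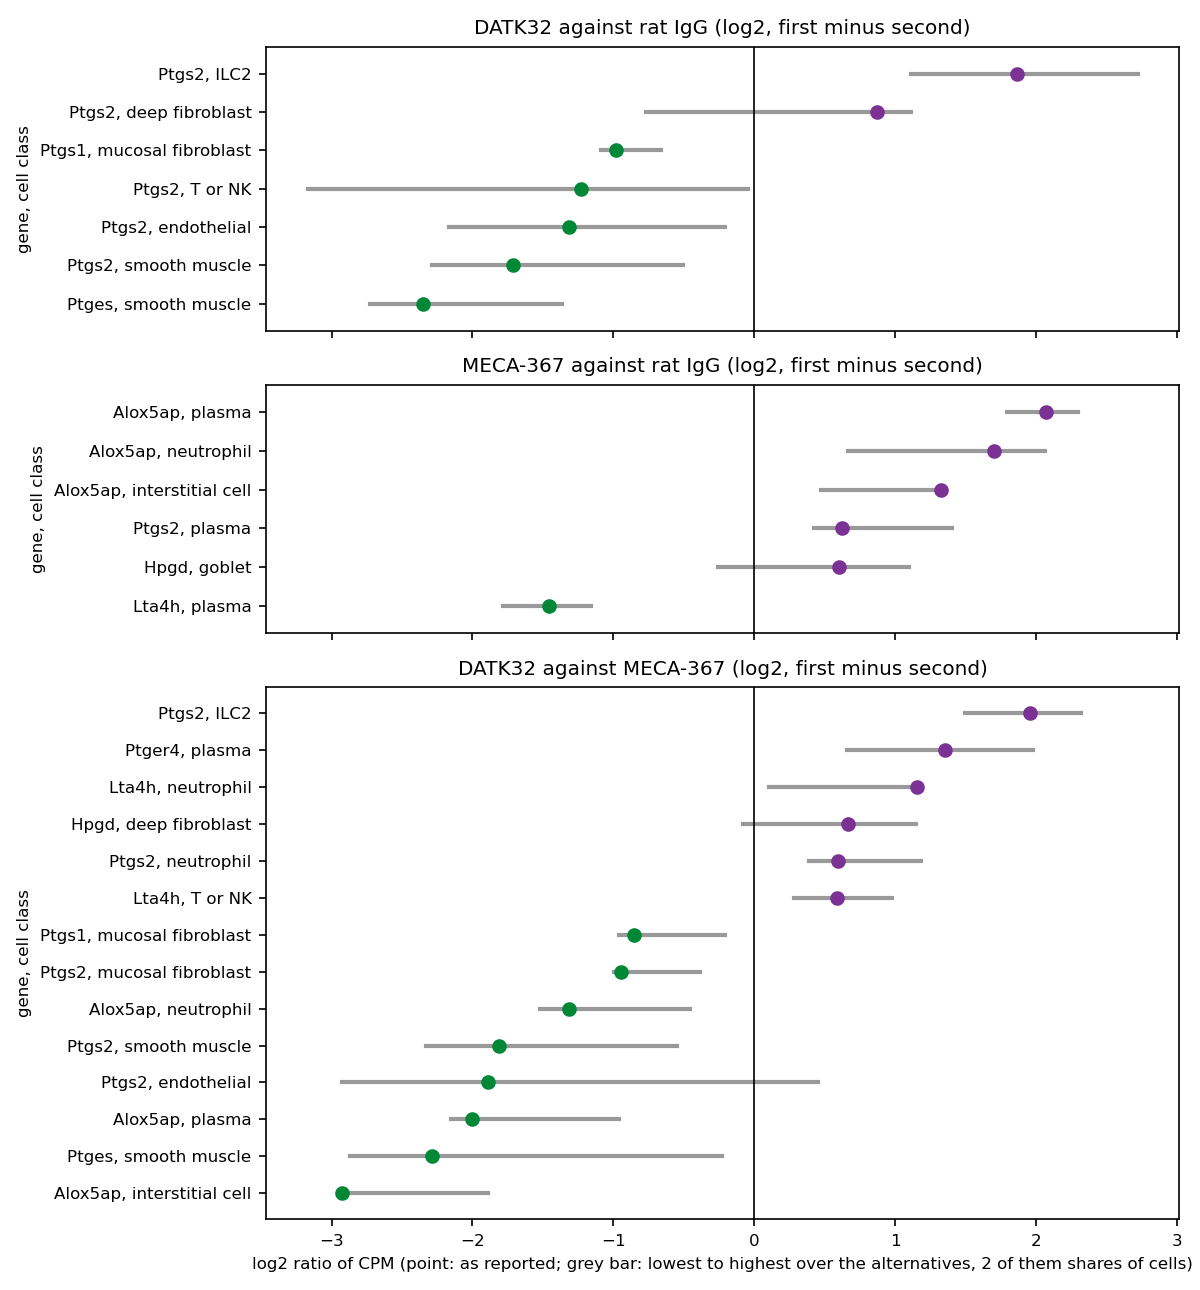
Log2 ratios of the 27 called pairs of gene and class in the 3 comparisons (points), with the lowest and highest value over the alternative settings (lines), 2 of which are shares of cells rather than CPM. Alox5ap in neutrophils between MECA-367 and rat IgG kept its call in all settings, and 4 pairs reach across 0.

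Between the antibodies, DATK32 against MECA-367, 14 of 45 pairs were called (31.1%), 6 higher and 8 lower in DATK32, where the rule called 5.73% over all genes (3.53% higher and 2.19% lower). DESeq2 size factors gave 3 higher and 9 lower, and the share over all genes was not recomputed under this or the other alternative settings. This comparison shares its libraries with the other comparisons. Thinned to 500 UMIs, 3 of the shares were called, and thinned to 1000 UMIs, 1. Among the pairs called only here, Ptgs2 in mucosal fibroblasts was 437 (393 to 484), 332 (288 to 380.2) and 643 (608 to 679) CPM, a log2 ratio of -0.95, with thinned shares of 12.9% (10.4 to 15.8), 11.1% (8.05 to 14.7) and 18.9% (16.4 to 21.6). DATK32 was the low library and MECA-367 the high one, and rat IgG lay between. With at least 1000 UMIs per cell the ratio was -0.47 and was not called. Ptger4 in plasma cells had a log2 ratio of 1.35, Hpgd in deep fibroblasts 0.67 (-0.08 at the 5% mitochondrial limit) and Lta4h in T or NK cells 0.59. The Lta4h call was lost under 8 of 16 settings and the Ptger4 call under 4. Alox5ap was lower in DATK32 in neutrophils (-1.31), plasma cells (-2.0) and interstitial cells (-2.93), and Ptges was lower in smooth muscle (-2.29). Of these, the neutrophil call held under 15 of 16 settings, with shares thinned to 1000 UMIs as the exception. Mucosal, smooth muscle and endothelial Ptgs2 were each lower in DATK32 than in MECA-367, while Ptgs2 in neutrophils and ILC2 was higher, and whether these classes differ in their response was not tested.

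The other genes of the pathway came from a list of 41, of which 40 were in the files, with 114 pairs of 27 genes measured. Their calls were not recomputed under the alternative settings that were run for the 10 members. Against rat IgG, DATK32 gave 3 calls (2.63%, close to the 2.82% over all genes), all lower: Ptger1, another prostaglandin E2 receptor, in mucosal fibroblasts (log2 ratio -2.04), and Ptgr2, a prostaglandin reductase, and Mgst3, a glutathione transferase, in deep fibroblasts (-1.44 and -0.84). MECA-367 gave 10 higher and 11 lower (18.4%, against 8.85% over all genes, 2.88% higher and 5.97% lower). Of these 21 calls 10 were in neutrophils, from 13 measured pairs, 4 higher and 6 lower. In that class 29% of all genes were called, 7.25% higher and 21.8% lower, and their median log2 ratio was -0.42. Of 33 measured pairs of leukotriene processing genes 7 were higher and 5 lower, with a median log2 ratio of 0.27. The higher ones were Ggt5, which trims leukotriene C4, in 4 classes: mucosal fibroblasts (0.63), smooth muscle (1.63), interstitial cells (1.24) and neutrophils (2.34). Dpep1, a dipeptidase of the next step, was higher in mucosal (0.73) and deep fibroblasts (0.66), and Ggt1 in neutrophils (1.25). The lower ones were Mgst2 in deep fibroblasts (-2.13) and Mgst3 in mucosal and deep fibroblasts, neutrophils and T or NK cells (-0.93, -0.82, -1.28 and -2.41).

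In neutrophils Ltb4r1, the leukotriene B4 receptor, was 47.4, 72.9 and 140.4 CPM, a log2 ratio of 1.51 for MECA-367 against rat IgG, and Pla2g7, a phospholipase that degrades platelet-activating factor, had 1.04 there and 0.91 in plasma cells. Pla2g4a and Pla2g10, which release fatty acids from membranes, were lower in neutrophils (-1.08 and -1.82), as were the synthases Ptges3, Cbr1 and Akr1b3 (-0.87, -1.88 and -1.60). Epithelial and goblet markers took 1.08%, 1.03% and 0.7% of neutrophil UMIs. The part of epithelial RNA in these lower values, and in that of Mgst3, was not tested. Ptger1 in mucosal fibroblasts was also lower in MECA-367 than in rat IgG (-1.31). None of the 5 breakdown and transport genes was called against rat IgG in MECA-367, over 20 pairs, where the rule called 8.85% over all genes. No other lipoxygenase had enough UMIs in any class. By level, Slco2a1, the prostaglandin transporter, stood at 842, 753 and 683 CPM in endothelium, Pla2g7 at 494, 559 and 631 CPM in phagocytes, Ptgis, the prostacyclin synthase, at 136, 132 and 114 CPM in deep fibroblasts, Pla2g4a at 148, 109 and 118 CPM in mucosal fibroblasts and Pla2g10 at 157, 128 and 159 CPM in goblet cells. Cyp4f18, which inactivates leukotriene B4, stood at 131, 114 and 137 CPM in neutrophils. Mgst2 was 426, 427 and 546 CPM in goblet cells and Mgst3 465, 396 and 559 CPM in columnar epithelium. Also above 100 CPM in at least 1 class of 1 library were Ptges3 (in nearly every class), Ggt5, Cbr1, Ltb4r1, Dpep1, Ptgfr, Ptger1, Ptges2, Akr1b3 and Abcc1.

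Between DATK32 and MECA-367, 4 pathway pairs were higher in DATK32 and 9 lower (11.4%, against 5.73% over all genes, 3.53% higher and 2.19% lower). In neutrophils, which held 4 of the 13, 12% of all genes were called, and the part of epithelial RNA there was not tested. The higher ones were Ptger1 in smooth muscle (1.66), Cbr1 and Mgst3 in neutrophils (1.23 and 1.08) and Mgst3 in T or NK cells (1.73). Lower in DATK32 were Ggt5 in mucosal and deep fibroblasts and interstitial cells (-0.71, -0.64 and -1.40), Dpep1 in mucosal and deep fibroblasts (-0.70 and -0.85) and Cbr1 in mucosal fibroblasts (-1.19). Ggt1 and Ltb4r1 in neutrophils (-2.09 and -0.91) and Pla2g7 in plasma cells (-1.003) completed the 9.

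The genes whose levels ran most like each member over the 42 values of 14 classes and 3 libraries were found by Pearson correlation of log2(CPM + 10) among 9380 genes. The values share libraries and depth, so the correlations are a description. Ptgs2 ran most like Tnfsf9 (r = 0.91), Cxcl10 (0.88) and Ccrl2 (0.86). Alox5ap ran like Wfdc17, Clec4e and Ifitm6 (0.95 each), Ptgs1 like Gm13889 (0.95), Igfbp5 (0.91) and Bdkrb2 (0.90), and Hpgd like Pde9a (0.88), Tspan3 (0.87) and Hoxa11os (0.86). Ptges came next, with Ecm1 (0.83) and Nrg1 (0.80). The best match was 0.79 for Lta4h (Pdhb), 0.76 for Ptger4 (Uqcrh), 0.73 for Alox5 (Dgat2), 0.68 for Hpgds (Kdm5a) and 0.50 for Ltc4s (Rnase1), the members with low counts or broad levels.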

How the data were processed

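UMI counts per gene and barcode for 3 libraries, 1 per antibody, were used as deposited: whole-number, unnormalized counts in filtered matrices, per the file headers. Cell Ranger 6.0.2 and the mm10 build are named in the submitters' processing notes, and the annotation release and strand setting are not given in the sources used here. Barcodes over 10% mitochondrial UMIs (31.9%, 30.7% and 29.6%) were among those left out. Counts scaled to 10000 per cell were clustered without the 10 genes and 40 pathway genes (scanpy 1.11.5, 2000 variable genes, 30 principal components, 15 neighbours, igraph 0.11.9 Leiden at resolution 1, no batch correction).

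Clusters were named from 29 marker lists. A name needed a marker score (mean standardized expression over the list) of at least 0.5, a next family's score of at most 0.5 of it, 3 markers found in 5% of cells and 2 among the 50 leading genes. The data had been seen when these limits were chosen, and other limits could name other clusters. Scrublet marked 0, 1 and 0 cells and so did not work as a filter. Doublets therefore remained, and an alternative left out the 434, 274 and 278 highest scores.

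UMIs were summed per class and library. Ratios were taken on log2 after adding 1 count. Poisson and Clopper-Pearson limits are exact 95% intervals, they cover counting error only, and 3 counts set the limit for a 0. The calling steps were run on simulated counts with Poisson error only and no variation between libraries or cells. That run cannot show how reliable calls between single libraries are. No test between antibodies was possible with 1 library each. The alternatives were other resolutions, filters, scalings (edgeR 4.0.16, DESeq2 1.42.0), count minimums, thinned shares and exclusions of cells. They were run for the 10 members only. The genes named outside the members were the called pathway genes, those over 100 CPM in a class, and the 3 most like each member among genes with at least 500 UMIs, of which 1 is not reported here. The members and all lists were chosen with earlier results of these data known. RefSeq promoter windows matched 9 of the 10 members.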

Additional observations from a re-analysis of the deposited data

Results flagged for a closer look

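Ptgs2 was called in opposite directions in different classes of the same comparison, and the difference between classes was not tested. For DATK32 against MECA-367 its log2 ratio was -0.9476 in mucosal fibroblasts, -1.812 in smooth muscle and -1.8903 in endothelium, and 0.5921 in neutrophils and 1.9591 in ILC2. For DATK32 against rat IgG it was -1.7127 in smooth muscle, -1.3179 in endothelium and -1.2284 in T or NK cells, and 0.871 in deep fibroblasts and 1.8662 in ILC2.

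Members were also found in barcodes that the filters left out. Barcodes over the mitochondrial limit in MECA-367 had 113.787 CPM of Alox5ap, against 15.1 CPM in rat IgG and 18.2 CPM in DATK32. Their Ptgs2 level was 66.1994 CPM, against 32.7 and 33.3 CPM. The over-limit barcodes numbered 3453, 2589 and 2481.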

How the results depend on the processing

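With 1 library per antibody, no library was left out. Low counts limited the comparisons of Alox5, Ltc4s and Hpgds to few pairs or none. Of 27 called pairs, 1 kept its call under all 16 alternatives, of which 2 (without the top cell, and without cells rich in myeloid markers) were added after seeing the data. Of 410 recomputed log2 ratios, 312 kept the call, 91 kept the direction without the call, and 7 changed direction. No paired analysis was possible because each group had 1 library.

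A mitochondrial limit of 5%, under which enteroendocrine cells and ILC2 were too few to compare, gave 3 calls between DATK32 and rat IgG, 9 between DATK32 and MECA-367, and 7 members with the same highest class in each library. Without a count minimum MECA-367 against rat IgG had 10 calls. Shares after thinning to 500 UMIs, which count cells and not UMIs, gave 0 calls between DATK32 and rat IgG, 2 between MECA-367 and rat IgG and 3 between the other pair. Thinning to 1000 UMIs gave 0, 3 and 1 calls. Under the other alternatives the counts ran from 5 to 9, 5 to 9 and 10 to 14, and the members with the same highest class from 3 to 6. The share over all genes was not recomputed under any alternative, so these counts have no background beside them. ILC2 were also too few with 1000 UMIs per cell or at resolution 0.5. The scalings moved the neutrophil ratios of MECA-367 over rat IgG by 0.34 (TMM).

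Ptgs2 in deep fibroblasts, DATK32 against rat IgG, turned to -0.77 at the 5% limit, -0.38 with at least 1000 UMIs per cell, -0.1078 without the highest Scrublet scores and -0.0291 on shares thinned to 1000 UMIs. Hpgd in deep fibroblasts, DATK32 against MECA-367, turned to -0.082 at the 5% limit. Hpgd in goblet cells, MECA-367 against rat IgG, turned to -0.2539 on shares thinned to 500 UMIs. Ptgs2 in endothelium, DATK32 against MECA-367, turned to 0.4507 on shares thinned to 1000 UMIs. The cause of these turns was not tested.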
